A study of Homo sapiens with 4 samples.

Results

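Aminoacyl-tRNA synthetases are the enzymes that join each amino acid to its own tRNA, and they were followed here as a family of 38 listed genes: 19 enzymes of the cytosol, 16 of the mitochondrion and 3 scaffold proteins of the multi-synthetase complex. Members were taken by gene symbol, with the probe set of highest mean standing for a gene. The annotation used here named 18 of the 38, out of 14884 named genes in all. These 18 are 17 of the 19 cytosolic enzymes and the scaffold AIMP1. FARSA and FARSB (the phenylalanine enzyme), the scaffolds AIMP2 and EEF1E1, and all 16 mitochondrial enzymes (AARS2, CARS2, EARS2, FARS2, HARS2, IARS2, LARS2, MARS2, NARS2, PARS2, RARS2, SARS2, TARS2, VARS2, WARS2 and YARS2) have no probe set named here and were not analysed. The comparison of cytosolic with mitochondrial enzymes therefore could not be made, and factors of mitochondrial translation are described in its place. All 18 named members passed the filter on low values.

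RNA was measured on 4 whole-transcript arrays of human multiple myeloma, a cancer of plasma cells: MIF-KO ARP-1, CTR-KO ARP-1, MIF-KO MM.1S and CTR-KO MM.1S, with 1 array for each line and condition. Both conditions were made with a lentivirus that carries a short hairpin RNA (shRNA), against MIF in MIF-KO and a control in CTR-KO, followed by a sort of GFP+ cells, and all cells grew in RPMI1640 with 10% fetal bovine serum. MIF is a secreted inflammatory cytokine, and since a hairpin lowers a transcript without removing its gene, KO stands here for a knockdown. No label tells of separate cultures, so any spread or p-value rests on these 4 samples. A spread here is the disagreement of the lines, within which technical differences cannot be told apart.

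Arrays are called by their titles and genotype labels. In ARP-1 each array's free-text description gives the reverse of its title. MIF itself had an intensity of 541 on the MIF-KO array and 1092 on the CTR-KO array of ARP-1, and of 405 on the MIF-KO array and 1012 on the CTR-KO array of MM.1S, so the titles place the lower MIF value in MIF-KO in both lines. The arrays did not group by line. Over the 7442 genes tested, the median absolute log2 difference was smallest, at 0.18, for the pair of CTR-KO MM.1S and MIF-KO ARP-1, against 0.29 between MIF-KO ARP-1 and CTR-KO ARP-1. Over the 18 members the same distances were 0.10 and 0.62, and CTR-KO ARP-1 lay at least 0.62 from each other array. Of 9 listed plasma cell markers, 6 were named and all 6 passed the filter, and their summed intensity lay between 5780 and 6821 on the 4 arrays, of which IRF4 made 3579 to 4380. Of these 6, 4 were higher in MIF-KO ARP-1 (47.7% of tested genes) and 2 lower (52.3%). The 4 were XBP1 (log2 difference 0.51), MZB1 (0.45), IRF4 (0.29) and SLAMF7 (0.02). In MM.1S the differences were -0.05 for XBP1, -0.63 for MZB1, -0.01 for IRF4 and 0.37 for SLAMF7. The 2 lower in MIF-KO ARP-1 were the surface markers SDC1 and CD38. SDC1 read 184 on MIF-KO ARP-1 and 471 on CTR-KO ARP-1 (-1.36), and 471 on MIF-KO MM.1S and 337 on CTR-KO MM.1S (0.48). CD38 read 41.8 on MIF-KO ARP-1 and 113 on CTR-KO ARP-1 (-1.44), and 56.2 on MIF-KO MM.1S and 41.0 on CTR-KO MM.1S (0.46), and the part of either marker in the synthetase differences was not tested.

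Synthetases read the genetic code: each recognises its amino acid and its tRNA and uses ATP to join them, and the charged tRNA is what the ribosome consumes. Human cells have separate enzyme sets for cytosolic and mitochondrial protein synthesis, with exceptions such as KARS1 and GARS1, single genes whose products serve both compartments. Uncharged tRNA activates the kinase GCN2 (EIF2AK4), which leads to translation of ATF4, the transcription factor of the amino acid response. ATF4 is known to drive transcription of many cytosolic synthetase genes, and plasma cells, which secrete large amounts of antibody, depend on high translation.

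In ARP-1 most of the named cytosolic enzymes were higher in MIF-KO. Of the 17, 13 were higher and 4 lower in MIF-KO ARP-1, where 47.7% of the 7442 tested genes were higher and 52.3% lower. At a fold of 1.5 or more, 7 were higher and 2 lower, against 10.9% of tested genes higher and 11.9% lower. The count of lower enzymes is thus near the share of all tested genes. The median log2 difference, MIF-KO minus CTR-KO, was 0.51 over the 17 enzymes and -0.03 over all tested genes. In MM.1S the median of the 17 was 0.03, near the 0.04 of all tested genes, with 9 higher (55.1% of tested genes) and 8 lower (44.9%). At 1.5-fold, 1 enzyme was higher (5.12% of all tested genes) and 0 were lower (2.89%). Each line has 1 array per condition, so these differences carry no replicate error and no test. Every ARP-1 difference here follows the titles, and turns sign if the free-text descriptions are followed instead.

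**Figure D1:**
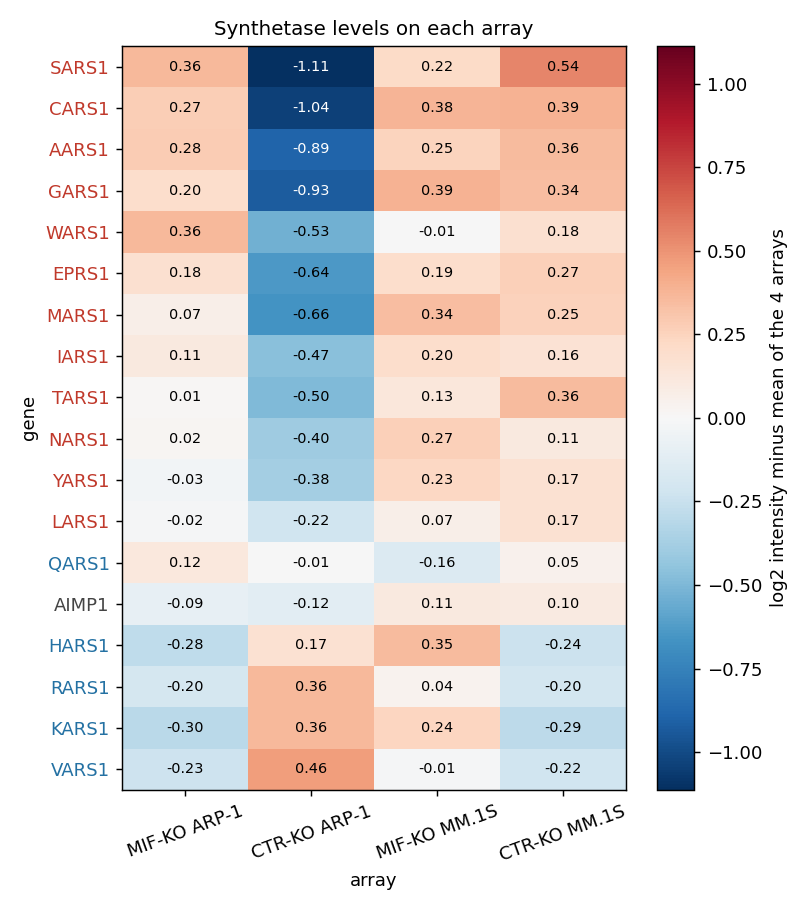
Level of the 18 named members on each array, as log2 intensity minus the gene's mean over the 4 arrays. Rows are ordered by the difference MIF-KO minus CTR-KO in ARP-1. Gene names in red are cytosolic enzymes known as ATF4 targets, names in blue the other cytosolic enzymes, and AIMP1 is in grey. The CTR-KO ARP-1 column holds the lowest value of every red row, down to -1.11 for SARS1, and the highest of RARS1, KARS1 and VARS1.

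Of the 13 enzymes that were higher in MIF-KO ARP-1, 12 are commonly listed as ATF4 targets, and the other was QARS1 (0.12). The list of 12 (AARS1, CARS1, EPRS1, GARS1, IARS1, LARS1, MARS1, NARS1, SARS1, TARS1, WARS1 and YARS1) came from general knowledge, and it was written with the displacement of other ATF4 targets on these arrays already known, so it is not independent evidence. All 12 were higher in MIF-KO ARP-1 (47.7% of tested genes), with differences from 0.21 (LARS1) to 1.47 (SARS1), a median of 0.77, and 7 at 1.5-fold or more (10.9%). In MM.1S the same 12 ranged from -0.33 (SARS1) to 0.16 (NARS1), with a median of -0.04 and none at 1.5-fold in either direction. The 5 cytosolic enzymes outside that list (HARS1, KARS1, QARS1, RARS1 and VARS1) had a median of -0.56 in ARP-1 and 0.24 in MM.1S.

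SARS1, which charges serine tRNA, had the widest difference of the family. Its intensity was 507 on MIF-KO ARP-1 and 183 on CTR-KO ARP-1 (log2 difference 1.47, or 2.77-fold), and 460 on MIF-KO MM.1S and 576 on CTR-KO MM.1S (-0.33). The CTR-KO ARP-1 array was the low one, and the other 3 lay within 0.33 of each other on the log2 scale. CARS1, the cysteine enzyme, had 459 on MIF-KO ARP-1 and 185 on CTR-KO ARP-1 (1.31, or 2.48-fold), and 494 on MIF-KO MM.1S and 497 on CTR-KO MM.1S (-0.01). Here the other 3 arrays lay within 0.11 of each other.

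AARS1, the alanine enzyme, read 2389 on MIF-KO ARP-1 and 1057 on CTR-KO ARP-1 (1.18, or 2.26-fold), and 2334 on MIF-KO MM.1S and 2510 on CTR-KO MM.1S (-0.10). GARS1, the glycine enzyme of both compartments, read 1960 on MIF-KO ARP-1 and 898 on CTR-KO ARP-1 (1.13, or 2.18-fold), and 2240 on MIF-KO MM.1S and 2172 on CTR-KO MM.1S (0.04). For both genes 3 arrays were alike and CTR-KO ARP-1 stood at less than the level of any of them. WARS1, the tryptophan enzyme, which interferon is also known to induce, read 467 on MIF-KO ARP-1 and 252 on CTR-KO ARP-1 (0.89), and 362 on MIF-KO MM.1S and 412 on CTR-KO MM.1S (-0.19). A dimmer WARS1 probe set had the same directions, with 0.74 in ARP-1 and -0.41 in MM.1S.

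**Figure D2:**
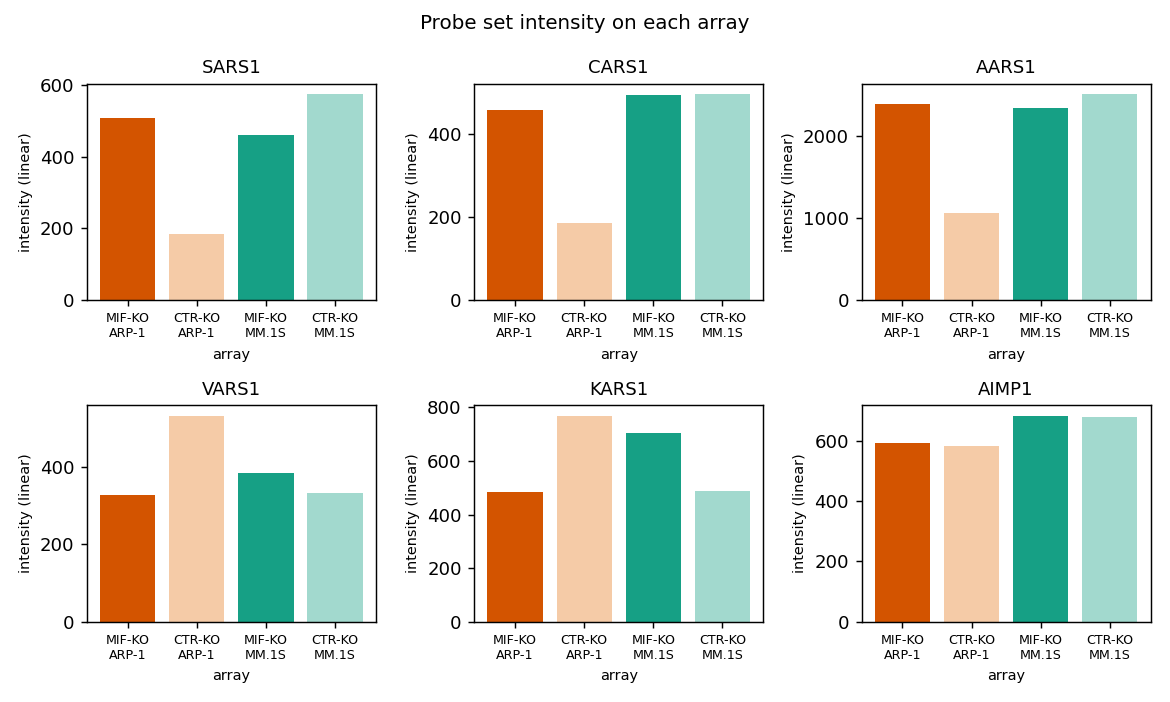
Linear probe set intensity on the 4 arrays for the enzymes SARS1, CARS1, AARS1, VARS1 and KARS1 and the scaffold AIMP1, with 1 array per bar and a separate axis from 0 for each gene. SARS1, CARS1 and AARS1 have their shortest bar on CTR-KO ARP-1, VARS1 and KARS1 have their tallest there, and AIMP1 runs from 585 to 685.

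Among the enzymes of the multi-synthetase complex, a particle that holds several cytosolic synthetases together, differences went both ways. EPRS1, which charges both glutamate and proline tRNA, read 2104 on MIF-KO ARP-1 and 1192 on CTR-KO ARP-1 (0.82), and 2125 on MIF-KO MM.1S and 2232 on CTR-KO MM.1S (-0.07). MARS1, the methionine enzyme that also charges initiator tRNA, read 1163 on MIF-KO ARP-1 and 702 on CTR-KO ARP-1 (0.73), and 1406 on MIF-KO MM.1S and 1324 on CTR-KO MM.1S (0.09). Both were low on CTR-KO ARP-1 alone. IARS1, the isoleucine enzyme, read 1784 on MIF-KO ARP-1 and 1195 on CTR-KO ARP-1 (0.58), and 1898 on MIF-KO MM.1S and 1853 on CTR-KO MM.1S (0.03). LARS1, the leucine enzyme, which also serves as a leucine sensor for mTORC1, read 1083 on MIF-KO ARP-1 and 938 on CTR-KO ARP-1 (0.21), and 1148 on MIF-KO MM.1S and 1230 on CTR-KO MM.1S (-0.10). LARS1 had the smallest ARP-1 difference of the 12 ATF4-list enzymes, and its lowest array was again CTR-KO ARP-1.

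The other 3 enzymes of the complex were not low on CTR-KO ARP-1. KARS1, the lysine enzyme of both compartments, read 486 on MIF-KO ARP-1 and 769 on CTR-KO ARP-1 (-0.66), and 706 on MIF-KO MM.1S and 488 on CTR-KO MM.1S (0.53). RARS1, the arginine enzyme, read 615 on MIF-KO ARP-1 and 905 on CTR-KO ARP-1 (-0.56), and 727 on MIF-KO MM.1S and 614 on CTR-KO MM.1S (0.24). For both, CTR-KO ARP-1 was the highest array and MIF-KO MM.1S the next. QARS1, the glutamine enzyme, read 815 on MIF-KO ARP-1 and 749 on CTR-KO ARP-1 (0.12), and 676 on MIF-KO MM.1S and 777 on CTR-KO MM.1S (-0.20), with CTR-KO ARP-1 inside the range of the others. AIMP1, a scaffold of the complex that is also secreted as a cytokine precursor, read 595 on MIF-KO ARP-1 and 585 on CTR-KO ARP-1 (0.02), and 685 on MIF-KO MM.1S and 680 on CTR-KO MM.1S (0.01). Its ARP-1 difference was the smallest of the 18. Over the 7 enzymes of the complex the ARP-1 median was 0.21, and over the 10 outside it 0.70. KARS1, RARS1 and QARS1 are off the ATF4 list, as only VARS1 and HARS1 are outside the complex. These medians therefore also differ in their share of ATF4-list enzymes.

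The remaining ATF4-list enzymes, NARS1, TARS1 and YARS1, work outside the complex. NARS1 (asparagine) read 2114 on MIF-KO ARP-1 and 1581 on CTR-KO ARP-1 (0.42), and 2500 on MIF-KO MM.1S and 2238 on CTR-KO MM.1S (0.16). TARS1 (threonine) read 1685 on MIF-KO ARP-1 and 1184 on CTR-KO ARP-1 (0.51), and 1822 on MIF-KO MM.1S and 2135 on CTR-KO MM.1S (-0.23). YARS1 (tyrosine) read 555 on MIF-KO ARP-1 and 438 on CTR-KO ARP-1 (0.34), and 668 on MIF-KO MM.1S and 641 on CTR-KO MM.1S (0.06). All 3 had their lowest value on CTR-KO ARP-1.

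VARS1 and HARS1 ran the other way. VARS1, the valine enzyme, read 329 on MIF-KO ARP-1 and 533 on CTR-KO ARP-1 (-0.70, 61.7% of CTR-KO), and 384 on MIF-KO MM.1S and 331 on CTR-KO MM.1S (0.21). Its other probe set gave -0.86 in ARP-1 and 0.10 in MM.1S. HARS1, the histidine enzyme, read 55.6 on MIF-KO ARP-1 and 76.0 on CTR-KO ARP-1 (-0.45), and 86.1 on MIF-KO MM.1S and 57.3 on CTR-KO MM.1S (0.59). These are the lowest values of any named member, from 5.80 to 6.43 in log2 where the filter was 4.97, and HARS1 did not pass a stricter filter. HARS1 was the 1 enzyme at 1.5-fold in MM.1S, where its value passes that threshold narrowly (1.504-fold) and did not reach it under either of the other scalings of the arrays. By structural class, the 9 class I enzymes had an ARP-1 median of 0.34 and the 7 class II enzymes 0.51, while EPRS1 holds both kinds of catalytic domain.

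**Figure D3:**
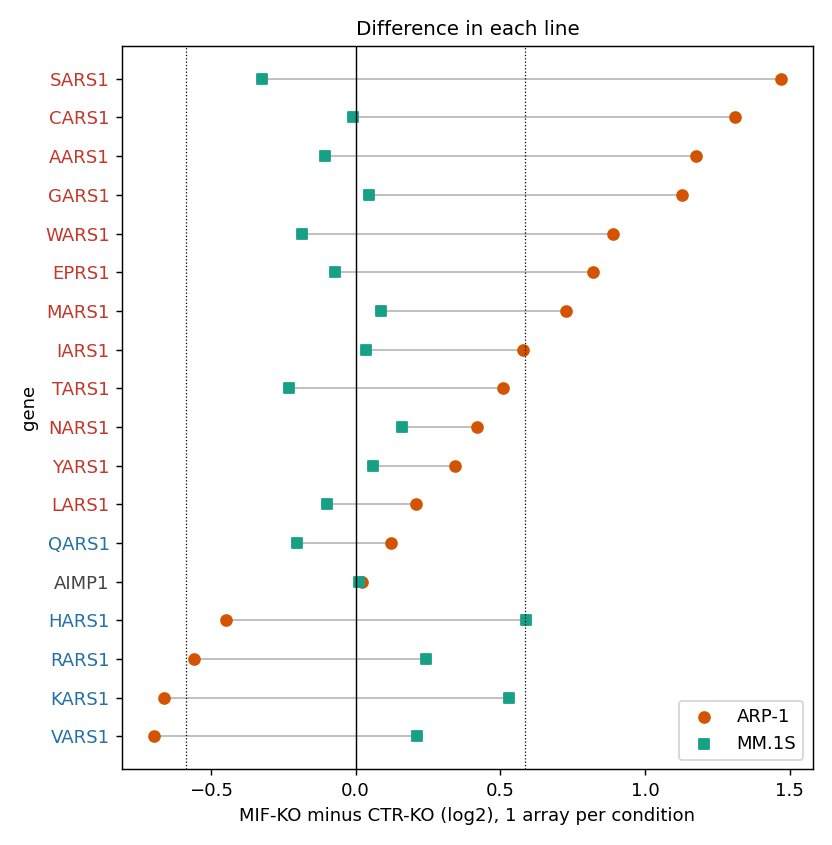
Difference MIF-KO minus CTR-KO (log2) of each named member in ARP-1 (orange circles) and MM.1S (green squares), each from 1 array per condition, with gene names coloured red for ATF4-list enzymes, blue for the other cytosolic enzymes and grey for AIMP1. Dotted lines mark 1.5-fold. Orange points run from -0.70 (VARS1) to 1.47 (SARS1), while green points stay between -0.33 and 0.59.

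Over both lines no member passed the test. limma, with cell line and condition as terms, called 0 of the 18 members and 0% of the 7442 tested genes, and the adjusted p of each member was 0.99995. At an unadjusted p below 0.05 it had 0 members and 29 genes. MIF, the target of the hairpin, was lower in MIF-KO of both lines (-1.01 in ARP-1 and -1.32 in MM.1S). It was not called either, with a limma p of 0.010 and an adjusted p of 0.99995, so the lack of calls is not particular to the synthetases. The smallest unadjusted p of a member was that of GARS1, at 0.15 in the limma fit. Its mean difference over the 2 lines was 0.59 (SE 0.34), with a 95% interval from -0.30 to 1.47. SARS1 had a mean difference of 0.57 (SE 0.50, interval from -0.71 to 1.86), CARS1 of 0.65 (SE 0.42, interval from -0.43 to 1.73) and AARS1 of 0.54 (SE 0.37, interval from -0.42 to 1.49). VARS1 had a mean difference of -0.24 (SE 0.36) and KARS1 of -0.07 (SE 0.39). The error of this fit joins the disagreement of the lines, with 1 residual degree of freedom, to a prior from all tested genes. That prior has a median of 3.99 degrees of freedom, so an SE here is not a gene's own spread between lines. Of the 18 members, 12 differed in opposite directions in the lines, as 67.6% of all tested genes did.

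The lines were also compared under each condition. Under CTR-KO, 9 cytosolic enzymes were at least 1.5-fold higher in MM.1S than in ARP-1 (11.2% of tested genes) and 2 lower (11.1%), with a median difference of 0.63. Under MIF-KO, 1 was higher (8.22%) and 0 were lower (4.37%), with a median of 0.11. The CTR-KO comparison shares its CTR-KO ARP-1 array with the ARP-1 comparison above, so their values are not separate evidence: SARS1 was 1.65 and VARS1 -0.68 in MM.1S minus ARP-1 under CTR-KO. Under MIF-KO the same genes were -0.14 and 0.22. Over both conditions limma called 0 members and 0% of the 7442 genes for line, with 87 genes and 0 members at an unadjusted p below 0.05.

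The enzymes had no common place for CTR-KO ARP-1 among the arrays. It held the lowest of the 4 values for 12 of the 17 cytosolic enzymes, which are all 12 of the ATF4 list, where 32.5% of tested genes had their lowest value there. It held the highest value for 3 (KARS1, RARS1 and VARS1), against 32% of tested genes, and lay within the range of the others for HARS1 and QARS1. As log2 level minus the mean of the gene, the ATF4-list enzymes had medians of 0.14 for MIF-KO and -0.59 for CTR-KO in ARP-1, with 0.23 for MIF-KO and 0.26 for CTR-KO in MM.1S. The 5 other enzymes had medians of -0.23 for MIF-KO and 0.36 for CTR-KO in ARP-1, with 0.04 for MIF-KO and -0.22 for CTR-KO in MM.1S. Without the ARP-1 pair, the ATF4-list median is the MM.1S value of -0.04.

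Most markers of other cell types were below the filter. Of 10 named markers of T cells, myeloid cells and epithelium, 3 passed the filter (CD8A, CD68 and KRT18). In ARP-1 the 10 summed to an intensity of 368 in MIF-KO and 538 in CTR-KO, and in MM.1S to 443 in MIF-KO and 423 in CTR-KO. CD68, a lysosomal protein abundant in macrophages, read 56.9 on MIF-KO ARP-1 and 227 on CTR-KO ARP-1, and the sum of the other 9 was 311 on both ARP-1 arrays. KRT18, a keratin of simple epithelia, read 166 on MIF-KO ARP-1 and 161 on CTR-KO ARP-1, and 161 on MIF-KO MM.1S and 203 on CTR-KO MM.1S. The defining myeloid markers CD14, LYZ and CSF1R were below the filter, and the part of CD68 in the synthetase differences was not tested. In RNA from whole cultures, fewer cells of a kind and less RNA per cell cannot be told apart.

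Promoters of the cytosolic enzymes were searched for the letters TGATGNAA and their reverse complement TTNCATCA, the core of the composite element that C/EBP and ATF4 proteins bind. Windows of RefSeq (GRCh38.p14), from 250 bases before to 50 after each annotated start, were held for 14 of the 17 named cytosolic enzymes, and LARS1, VARS1 and YARS1 had no entry. Either strand counted, and a gene counted once if any of its windows matched. Of the 10 ATF4-list enzymes with a window, 7 matched: AARS1, CARS1, GARS1, IARS1, MARS1, NARS1 and TARS1. Of the 4 other enzymes with a window (HARS1, KARS1, QARS1 and RARS1), 0 matched, and 4.46% of the 27305 genes in the table did. Of 14 mitochondrial enzymes with a window, YARS2 alone matched. A match is a string of letters and does not show binding in these cells. Known ATF4 targets make up the list, and the letters were chosen after the members' values were seen. The contrast of these counts is therefore not independent evidence.

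The 7 matching stretches are shown, since these are enzymes that were higher in MIF-KO ARP-1, each 5′ to 3′ on the gene's strand with the motif in capitals and up to 30 bases on either side.
AARS1 (chr16:70289656-70289723, minus strand): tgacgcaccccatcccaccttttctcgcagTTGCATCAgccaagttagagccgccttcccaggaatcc
CARS1 (chr11:3057388-3057455, minus strand): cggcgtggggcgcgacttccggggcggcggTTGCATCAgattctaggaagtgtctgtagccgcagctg
GARS1 (chr7:30594815-30594882, plus strand): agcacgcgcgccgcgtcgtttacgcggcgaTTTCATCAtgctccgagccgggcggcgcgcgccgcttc
IARS1 (chr9:92293673-92293740, minus strand): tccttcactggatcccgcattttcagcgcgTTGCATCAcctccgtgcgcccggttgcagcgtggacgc
MARS1 (chr12:57488034-57488101, plus strand): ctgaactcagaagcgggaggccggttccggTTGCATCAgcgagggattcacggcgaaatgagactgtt
NARS1 (chr18:57621787-57621852, minus strand): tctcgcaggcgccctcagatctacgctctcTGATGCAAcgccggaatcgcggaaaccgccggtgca
TARS1 (chr5:33440937-33441004, plus strand): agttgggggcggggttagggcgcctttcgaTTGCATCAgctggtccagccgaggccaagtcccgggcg
The motif began 2 bases before the start in CARS1, 4 in MARS1, 13 in IARS1, 33 in GARS1 and 187 in AARS1, and at base 3 after it in TARS1 and base 15 in NARS1. CARS1, GARS1 and TARS1 each have 2 annotated windows, of which 1 matched. Of the 7, all but GARS1 hold the letters TTGCATCA or their reverse complement TGATGCAA, and GARS1 holds TTTCATCA. The 7 enzymes had ARP-1 differences from 0.42 (NARS1) to 1.31 (CARS1), with a median of 0.73. The 3 ATF4-list enzymes with windows but no match were all above that median, at 0.82 (EPRS1), 0.89 (WARS1) and 1.47 (SARS1).

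Windows without a match are shown for the enzyme of widest difference, SARS1, and for KARS1, which ran the other way.
SARS1 (chr1:109213643-109213942, plus strand): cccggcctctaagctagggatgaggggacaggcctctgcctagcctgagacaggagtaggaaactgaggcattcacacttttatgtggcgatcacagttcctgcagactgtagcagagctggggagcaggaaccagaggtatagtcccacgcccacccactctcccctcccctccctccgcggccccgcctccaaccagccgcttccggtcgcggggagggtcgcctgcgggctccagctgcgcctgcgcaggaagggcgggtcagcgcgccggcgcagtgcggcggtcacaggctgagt
KARS1 (chr16:75647616-75647915, minus strand): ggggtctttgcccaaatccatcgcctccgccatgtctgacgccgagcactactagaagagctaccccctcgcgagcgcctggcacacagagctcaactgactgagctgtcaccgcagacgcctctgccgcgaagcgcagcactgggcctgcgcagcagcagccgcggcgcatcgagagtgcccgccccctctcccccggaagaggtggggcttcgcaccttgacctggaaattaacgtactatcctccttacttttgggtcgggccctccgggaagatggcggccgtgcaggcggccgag
These letters are absent from both windows, and also from those of EPRS1 and WARS1. SARS1 thus had the largest difference in ARP-1 with no match in its windows. The HARS1 window overlaps that of its mitochondrial neighbour HARS2 by 184 bases, since the genes start head to head.

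Beside the synthetases, 14 of 24 listed targets of the amino acid response other than synthetases were named. In ARP-1, MIF-KO was higher by 1.5-fold or more for 13 of these 14 (10.9% of tested genes) and lower for 0 (11.9%), with a median of 1.77. The remaining target, ATF5, was lower by slightly less than 1.5-fold, at -0.58 in ARP-1, and at -0.29 in MM.1S. Of the 14, 0 were higher by 1.5-fold in MM.1S (5.12%) and 4 lower (2.89%), with a median of -0.28. The shift of the ATF4-list synthetases was thus in the same direction and smaller, at 0.77 in ARP-1. The limma fit called 0 of the 14. ATF4 itself read 980 on MIF-KO ARP-1 and 585 on CTR-KO ARP-1 (0.74), and 967 on MIF-KO MM.1S and 1092 on CTR-KO MM.1S (-0.17). Its transcript is known to be regulated mostly at translation, which arrays do not measure. Of the 7 named stress response regulators, 2 had a MIF-KO value 1.5-fold or more above CTR-KO in ARP-1 (10.9% of tested genes): ATF4 and IMPACT, an inhibitor of GCN2 signalling, at 1.23 in ARP-1 and -0.49 in MM.1S.

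**Figure D4:**
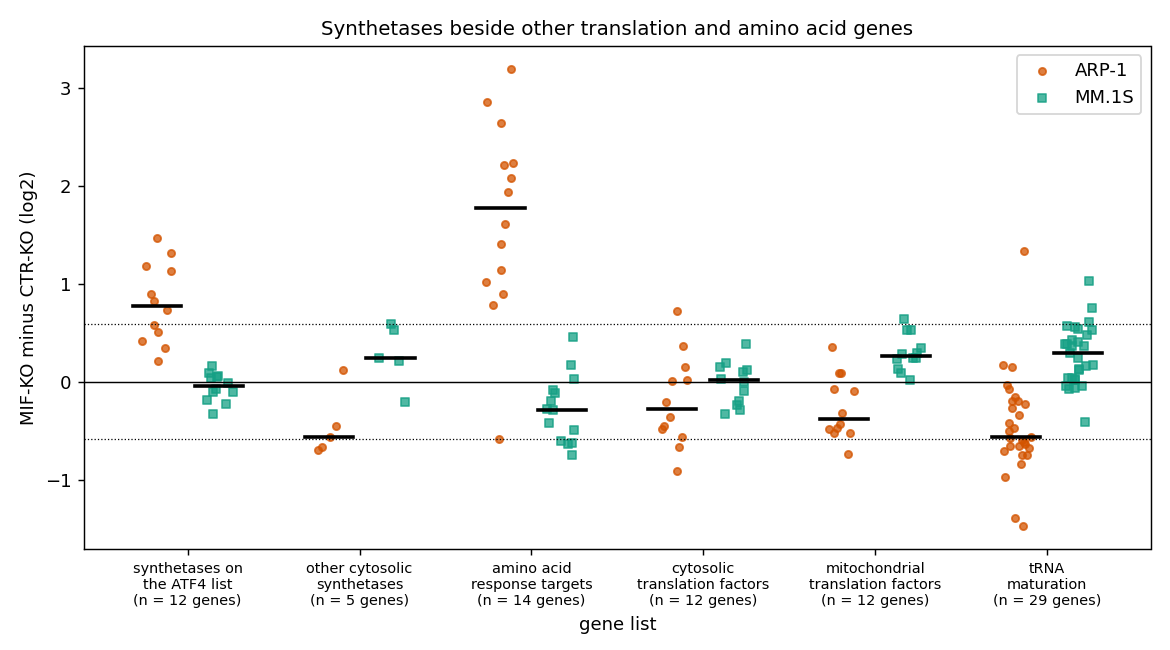
Difference MIF-KO minus CTR-KO (log2) for each tested gene of 6 lists, with ARP-1 as orange circles and MM.1S as green squares, 1 array per condition. Black bars are medians and dotted lines mark 1.5-fold. In ARP-1 the medians of the ATF4-list synthetases (0.77) and amino acid response targets (1.77) lie above 0, while those of the other 4 lists lie below it. ATF5 is the 1 amino acid response target below 0 in ARP-1.

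Mitochondrial translation factors stood in for the mitochondrial enzymes. Of 17 listed, 12 were named and tested. Their median was -0.38 in ARP-1, with 0 at least 1.5-fold higher in MIF-KO (10.9% of tested genes) and 1 lower (11.9%). It was 0.26 in MM.1S, with 1 higher (5.12%) and 0 lower (2.89%). At 1.5-fold these counts lie near the shares of all tested genes. By sign alone, 3 factors were higher and 9 lower in the ARP-1 comparison (47.7% and 52.3% of tested genes). The MM.1S difference was positive for each of the 12 (55.1% of tested genes), from 0.02 (MTRFR) to 0.64 (MTRF1). The median of the cytosolic enzymes thus lay 0.89 above that of the factors in ARP-1 and below it in MM.1S (-0.23), without a test. That cytosolic median joins groups of opposite sign for ARP-1, the ATF4 list (0.77) and the 5 other enzymes (-0.56). The 5 others had the sign of the factors for MM.1S as well (0.24). The 0.89 therefore does not hold for cytosolic enzymes off the ATF4 list. A low ARP-1 median was not particular to mitochondrial factors: it was -0.28 for cytosolic translation factors and -0.56 for genes of tRNA maturation. QRSL1 and GATB are subunits of the amidotransferase that makes mitochondrial glutaminyl-tRNA in the absence of a dedicated synthetase. QRSL1 read 189 on MIF-KO ARP-1 and 314 on CTR-KO ARP-1 (-0.74), and 282 on MIF-KO MM.1S and 258 on CTR-KO MM.1S (0.13). GATB read 76.0 on MIF-KO ARP-1 and 59.3 on CTR-KO ARP-1 (0.36), and 75.1 on MIF-KO MM.1S and 59.0 on CTR-KO MM.1S (0.35). For MTRF1, a release factor, the difference was 0.09 in ARP-1, and in MM.1S it was 0.64. Subunits of 1 enzyme, QRSL1 and GATB differed in opposite directions in ARP-1, and limma called 0 of the 12 factors.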

How the data were processed

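Expression was measured on 4 whole-transcript arrays. The authors deposited linear intensity values (2.74 to 15935) of 53617 probe sets, with array medians from 13.1 to 13.3. The submitters' processing notes list RMA and limma without version or role. The genome build, like the background step, is not given in the sources used here. Log2 was taken with no pseudocount, since the values were linear, where the design allowed for either scale. Arrays give no depth, so their number limits the precision.

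The platform annotation gave 1 symbol for 16098 probe sets, and all matched RefSeq by Entrez ID. For each of 14884 genes the probe set of highest mean was kept, and the 7442 genes whose mean reached the median of gene means (4.97, log2) were tested. limma 3.58.1 (R 4.3.3) fitted cell line and condition, with eBayes and a trend, leaving 1 residual degree of freedom, and p-values were adjusted over the 7442 genes by Benjamini-Hochberg, with a threshold of 0.05. Cell line is the pairing, from the labels. Across genes, the 2 arrays of a line deviated from their condition means with a correlation of -0.37. The fit was tested on simulated data.

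Members and lists were chosen with earlier results of these data known. The naming rule gives all named members per line. It gives the cytosolic enzymes with the 6 largest and 4 smallest ARP-1 differences and AIMP1 on every array. Per-array values of the other 7 enzymes were added after values were seen. At most 3 genes per list are named, by size of the mean difference, plus MIF and ATF4. The plasma cell and myeloid markers, ATF5, ELAC1 and CTU1 are named beyond this rule. The letters searched in promoters were chosen after the members' values were seen. Alternatives covered the line term, filter, scaling, variance prior, probe sets, exchanged ARP-1 arrays, pairing and left-out lines.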

Additional observations from a re-analysis of the deposited data

Results flagged for a closer look

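In 12 of the 18 named members the MIF-KO minus CTR-KO difference had opposite signs in the lines, which drew a closer look. With 1 array per line and condition, the difference between the lines could not be tested. The ARP-1 difference minus the MM.1S difference (log2) was 1.80 for SARS1, 1.32 for CARS1, 1.28 for AARS1, 1.08 for WARS1, 0.89 for EPRS1, 0.74 for TARS1, 0.33 for QARS1 and 0.31 for LARS1. It was -1.20 for KARS1, -1.04 for HARS1, -0.91 for VARS1 and -0.80 for RARS1. Opposite signs were as common over all tested genes (67.6%).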

How the results depend on the processing

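The limma fit called 0 genes for MIF-KO against CTR-KO under every alternative except the exchange of the ARP-1 arrays, and 0 for MM.1S against ARP-1 under all that were run. Without the line term (no replicate block) it called 0, with 41 genes at an unadjusted p below 0.05, and the crossed pairing, chosen after seeing the data, called 0. With the ARP-1 arrays exchanged as their descriptions name them, 401 genes were called, 252 higher and 149 lower, and 0 of the 18 members (lowest limma adjusted p 0.061 for SARS1 and 0.064 for KARS1). The exchange turns every ARP-1 difference round by construction. The ARP-1 median became -0.51 for cytosolic enzymes, -0.77 for the ATF4 list, 0.56 for the other 5 and 0.38 for mitochondrial translation factors, with -0.89 between cytosolic enzymes and those factors. The counts at 1.5-fold became 2 higher and 7 lower for cytosolic enzymes, 0 and 7 for the ATF4 list, 2 and 0 for the other 5, and 1 and 0 for the factors. The median of the mean over lines became -0.27 for cytosolic enzymes, -0.41 for the ATF4 list, 0.45 for the other 5 (-0.07 by the titles) and 0.28 for the mitochondrial translation factors (0.0023 by the titles). Mean differences over lines that turned sign with the exchange were -0.64 (AARS1), -0.66 (CARS1), -0.45 (EPRS1), -0.54 (GARS1), -0.27 (IARS1), 0.60 (KARS1), -0.15 (LARS1), -0.32 (MARS1), -0.13 (NARS1), 0.40 (RARS1), -0.90 (SARS1), -0.37 (TARS1), 0.45 (VARS1), -0.54 (WARS1), -0.14 (YARS1) and -0.0061 (AIMP1). Leaving out the ARP-1 pair (replicate 1) leaves the MM.1S difference, and leaving out the MM.1S pair (replicate 2) leaves that of ARP-1. Where this turned a sign, the range ran from -0.10 to 1.18 (AARS1), -0.0096 to 1.31 (CARS1), -0.071 to 0.82 (EPRS1), -0.45 to 0.59 (HARS1), -0.66 to 0.53 (KARS1), -0.10 to 0.21 (LARS1), -0.20 to 0.12 (QARS1), -0.56 to 0.24 (RARS1), -0.33 to 1.47 (SARS1), -0.23 to 0.51 (TARS1), -0.70 to 0.21 (VARS1) and -0.19 to 0.89 (WARS1). In MM.1S the median of the cytosolic enzymes was 0.012 with the stricter filter, 0.0098 with arrays at the same median and -0.0051 with quantile normalization, and that of the ATF4 list -0.065 with arrays at the same median. The count of cytosolic enzymes, and of those off the ATF4 list, at least 1.5-fold higher in MM.1S became 0 under these 3 settings, and that of mitochondrial factors became 0 with the stricter filter. With a line term, leaving out either array of a line leaves no residual degree of freedom, so these are values with no test. The median of cytosolic minus mitochondrial enzymes, planned as a result, was not run, since 0 mitochondrial enzymes are named here. Signal over background is unknown for these arrays.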

Other observations

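Genes of tRNA maturation ran opposite to most cytosolic synthetases in ARP-1. Of 37 listed, 30 were named and 29 tested. In ARP-1, 1 was at least 1.5-fold higher in MIF-KO (10.9% of tested genes) and 13 lower (11.9%), with a median of -0.56. In MM.1S, 3 were higher (5.12%) and 0 lower (2.89%), with a median of 0.30. WDR4, of the tRNA guanosine methyltransferase, read 74.5 on MIF-KO ARP-1 and 207 on CTR-KO ARP-1 (-1.47), and 92.7 on MIF-KO MM.1S and 62.7 on CTR-KO MM.1S (0.56). TSEN15, a subunit of the tRNA splicing endonuclease, was the 1 gene higher by 1.5-fold or more, with 301 on MIF-KO ARP-1 and 119 on CTR-KO ARP-1 (1.34), and 284 on MIF-KO MM.1S and 299 on CTR-KO MM.1S (-0.07). ELAC1 (0.17) and CTU1 (0.15) were also higher in MIF-KO ARP-1, by less, and are named after their values were seen. CTU2, of the tRNA thiolation enzyme, was lower in MIF-KO of both lines, at -0.71 in ARP-1 and -0.41 in MM.1S. limma called 0 of the 29, and 0 had an unadjusted p below 0.05. These genes were chosen with earlier results of these data known.

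Of the aspartyl-tRNA synthetases and editing factors, 2 of 6 listed were named. DTD2, a D-aminoacyl-tRNA deacylase, had a difference of -1.01 in ARP-1, and in MM.1S of 0.53. DTD1, of the same function, had -0.35 in ARP-1, and 0.08 in MM.1S. Cytosolic translation factors (12 named of 29 listed) had a median of -0.28 in ARP-1, where 1 was higher and 2 were lower by 1.5-fold or more. These counts are near the shares of all tested genes (10.9% and 11.9%). In MM.1S the median was 0.01. EIF6, a factor that keeps ribosome subunits apart, had a difference of -0.57 in ARP-1, and of -0.20 in MM.1S.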
